A study of Mus musculus with 12 samples.

Results

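The comparison described here sets all treated lungs, whatever the length of treatment, against the untreated ones, and asks which gene levels both treatment lengths share. All 12 of the 12 whole-lung RNA libraries enter it, 8 treated and 4 control, assigned by the treatment that the labels give each mouse. Every mouse was of the C57BL6/J strain. The 4 control mice were taken at 0 weeks. Of the treated mice, 4 had received L-NAME with a high-fat diet (HFD) for 2 weeks and 4 for 5 weeks, with L-NAME at 0.5 g/L of drinking water and a diet of 60% lipid. L-NAME and the diet were always given together, so their contributions cannot be told apart. The labels give no age and no diet for the control mice, and no untreated mice were taken at 2 or 5 weeks, so treatment and time on study cannot be told apart either. They also give no time of sacrifice for the controls, so treatment and the hour or session of collection cannot be told apart. Each library is a separate mouse, and a single-cell experiment of the same series was not analysed here.

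L-NAME blocks the nitric oxide synthases, the enzymes that make nitric oxide from arginine. In the lung, nitric oxide from the endothelium relaxes vascular smooth muscle through soluble guanylate cyclase and cyclic GMP, and L-NAME with a high-fat diet is used in mice to raise blood pressure and cause metabolic stress. Several genes met below belong to another well-known circuit, the glucocorticoid receptor, which binds the adrenal hormone corticosterone and switches on genes such as Fkbp5, Zbtb16 and Klf9. Others are immediate early genes, transcription factor genes such as Fos and Egr1 that cells switch on within minutes of a stimulus without making new protein.

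The libraries held lung RNA by their defining genes. Sftpc, which encodes surfactant protein C of alveolar type 2 cells, lay between 9794 and 12546 CPM (read counts scaled to a common library total) in the controls and between 11751 and 18046 CPM in the treated lungs. Genes of tissues beside the lung marked a few libraries. The mean log2(CPM + 1) of 11 skeletal muscle genes was 9.55 in 2-week replicate 3 and 5.08 in control replicate 2, against 0.82 to 1.42 in the other libraries. That of 13 adipocyte genes was 6.73 in control replicate 2 and at most 4.13 elsewhere, and that of 7 red cell genes was 9.13 in 5-week replicate 3 and at most 7.50 elsewhere. In bulk RNA, fewer cells of a type and less RNA per cell cannot be told apart.

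No gene passed the test when the 8 treated lungs were compared with the 4 controls. The test was limma on log2(CPM + 1), run on 15562 genes averaging 1 CPM or more, with Benjamini-Hochberg adjustment and a threshold of 0.05. It called 0 genes higher and 0 lower (0.0% each). At an unadjusted p under 0.05 there were 1270 genes (8.16%), 789 of them higher (5.07%) and 481 lower (3.09%) in treated lungs. The lowest adjusted p was 0.0787, shared by 7 genes: Hes2, Acoxl and Bex2, which averaged higher in treated lungs, and Slc26a4, Map3k6, Fkbp5 and Nr4a3, which averaged lower. Other versions of the fit called some of these genes, as did leaving out either of 2 libraries. A fit with a single mean for all treated lungs called Hes2, Acoxl and Slc26a4, each at an adjusted p of 0.0448. Limma's library weights called 7 genes higher and 7 lower. Without 5-week replicate 3 the calls were 3 higher and 4 lower, and without control replicate 1 they were 2 higher and 0 lower.

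A plainer view of what both lengths share is the count of genes in which all 8 treated libraries lay on 1 side of all 4 controls. There were 168 such genes (1.08%), 103 with the treated lungs higher (0.662%) and 65 with them lower (0.418%). The median log2 difference was 0.28 among the 103 and -0.34 among the 65. Which direction held more genes depended on the scaling. Median-of-ratios scaling gave 67 higher and 99 lower, and quantile scaling gave 50 and 81. The split at an unadjusted p under 0.05 turned as well, to 537 higher and 714 lower with median-of-ratios scaling and to 531 and 622 with quantile scaling. As deposited, 57.5% of all tested genes had a positive difference, and the median over all genes was 0.02.

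**Figure D1:**
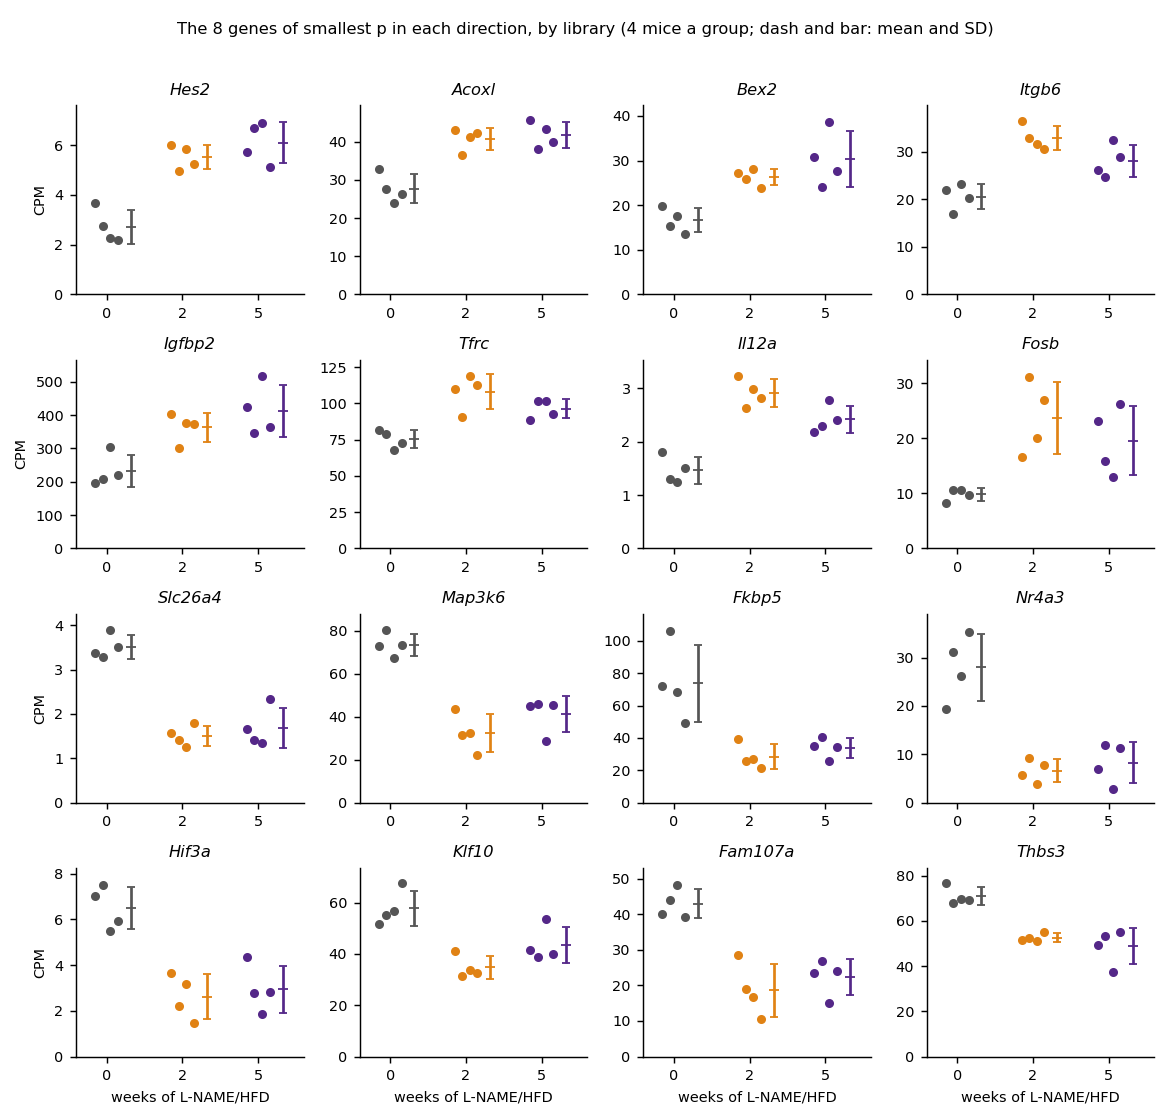
CPM of 16 genes in each library (vertical axes, from 0) against weeks of L-NAME/HFD (horizontal axes), with each point a mouse and each dash and bar the group mean and SD. These are the 8 genes of smallest p in each direction, none of which passed the adjusted threshold. In 14 panels the treated points lie wholly on 1 side of the controls, while Igfbp2 and Klf10 overlap by 1 library.

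The genes described first are the 8 of smallest p in each direction, and none of them passed the test. Hes2 encodes a basic helix-loop-helix repressor of the HES family and had the smallest p of all. Its gene spans chr4:152243324-152246926, as the deposited table gives positions in a build it does not name. The controls stood at 3.67, 2.74, 2.27 and 2.18 CPM, the 2-week lungs at 6.01, 4.97, 5.85 and 5.25 CPM, and the 5-week lungs at 5.72, 6.68, 6.87 and 5.13 CPM. All 8 treated lungs were above all 4 controls, with no order between 2 and 5 weeks. The treated mean was 5.81 ± 0.699 CPM (SD, n = 8) against 2.71 ± 0.684 CPM (SD, n = 4), a ratio of 2.14. The log2(CPM + 1) difference was 0.89 ± 0.12 (SE), with a limma adjusted p of 0.0787 and an exact two-sided permutation p of 0.00404, the smallest that 8 against 4 libraries allow.

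Acoxl, at chr2:127680796-127965793 in the deposited table, encodes a protein related to the peroxisomal acyl-CoA oxidases. Control lungs had 32.9, 27.6, 24 and 26.4 CPM, 2-week lungs 43.0, 36.4, 41.1 and 42.2 CPM, and 5-week lungs 45.6, 38.0, 43.2 and 39.9 CPM. The groups did not overlap, and the treated mean was 1.49 times that of the controls. Its log2 difference was 0.56 ± 0.09 (SE). Bex2 lies at chrX:134967313-134968985. Its controls read 19.8, 15.4, 17.6 and 13.6 CPM, against 27.3, 25.9, 28.2 and 23.9 CPM at 2 weeks and 30.7, 24, 38.7 and 27.7 CPM at 5 weeks. Again every treated lung was above every control, and the log2 difference was 0.74 ± 0.12 (SE).

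Among the other 5 genes that averaged higher were 2 of the alveolar epithelium. Itgb6 encodes the beta subunit of the integrin that activates latent TGF-beta on lung epithelial cells. It averaged 20.5 ± 2.69 CPM (SD, n = 4) in controls and 30.5 ± 3.81 CPM (SD, n = 8) in treated lungs, with no overlap. Igfbp2, an insulin-like growth factor binding protein used as a marker of alveolar type 1 cells, averaged 232 ± 48.3 CPM in controls and 388 ± 63.9 CPM in treated lungs. Control replicate 3, at 303 CPM, was just above the lowest treated lung at 302 CPM. Of 13 alveolar type 1 genes, 10 had a positive difference, as had 57.5% of all genes. At an unadjusted p under 0.05, 3 were higher, against 5.07% of all genes, and the median of the list was 0.04. Hopx, another marker of these cells, stood at 666 ± 90.6 CPM in controls and 830 ± 104 CPM in treated lungs, with a limma adjusted p of 0.489.

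Tfrc encodes the transferrin receptor, through which cells take up iron. It ranged from 67.9 to 81.8 CPM in controls and from 88.5 to 119 CPM in treated lungs. Il12a, which encodes the p35 chain of interleukin 12, was near the filter, at 1.46 ± 0.254 CPM in controls and 2.67 ± 0.358 CPM in treated lungs. Fosb, an AP-1 transcription factor, averaged 9.78 ± 1.13 CPM in controls and 21.6 ± 6.33 CPM in treated lungs. None of these 3 overlapped between the groups, and their limma adjusted p was 0.117.

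Of the genes that averaged lower, Slc26a4 had the smallest p. It encodes pendrin, an exchanger of chloride, bicarbonate and iodide, at chr12:31569826-31609968. Control values were 3.38, 3.28, 3.89 and 3.50 CPM, 2-week values 1.56, 1.41, 1.25 and 1.79 CPM, and 5-week values 1.65, 1.40, 1.34 and 2.34 CPM. No treated lung reached a control lung, and the control mean was 2.2 times the treated mean. The log2 difference was -0.81 ± 0.12 (SE), on a scale that understates differences at such low levels. Slc26a4 was also the only member of 14 alveolar type 2 genes with an unadjusted p under 0.05. Over all genes 3.09% were lower and 5.07% higher at that threshold. Of the 14, 12 had a positive difference, as had 57.5% of all genes.

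Map3k6 encodes a kinase at the top of the stress-activated MAP kinase cascade, at chr4:132968129-132980240. The controls had 72.9, 80.2, 67.5 and 73.4 CPM, the 2-week lungs 43.7, 31.5, 32.4 and 22 CPM, and the 5-week lungs 44.8, 46.1, 28.5 and 45.4 CPM. The highest treated lung was well below the lowest control. Means were 73.5 ± 5.19 CPM (SD, n = 4) and 36.8 ± 9.3 CPM (SD, n = 8), and the log2 difference was -1.02 ± 0.16 (SE). Nr4a3, an orphan nuclear receptor gene at chr4:48045153-48086447, had the largest difference of the 16. It stood at 19.3, 31.1, 26.2 and 35.3 CPM in controls, at 5.61, 9.25, 3.84 and 7.80 CPM at 2 weeks, and at 6.88, 12, 2.81 and 11.2 CPM at 5 weeks. The control mean was 3.77 times the treated mean, with a log2 difference of -1.86 ± 0.30 (SE).

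The remaining genes of small p on the lower side were Hif3a, Klf10, Fam107a and Thbs3, beside Fkbp5, which is described with the glucocorticoid genes. Hif3a encodes a hypoxia-inducible factor subunit and averaged 6.49 ± 0.925 CPM in controls and 2.78 ± 0.943 CPM in treated lungs. Fam107a, an actin-associated stress gene known to respond to glucocorticoids, averaged 42.9 ± 4.11 CPM and 20.5 ± 6.21 CPM. Thbs3 encodes a thrombospondin of the extracellular matrix and averaged 70.8 ± 4.07 CPM and 50.7 ± 5.79 CPM. In these 3 genes every treated lung was below every control. Klf10 overlapped, with 5-week replicate 3 at 53.6 CPM against a lowest control of 51.5 CPM.

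**Figure D2:**
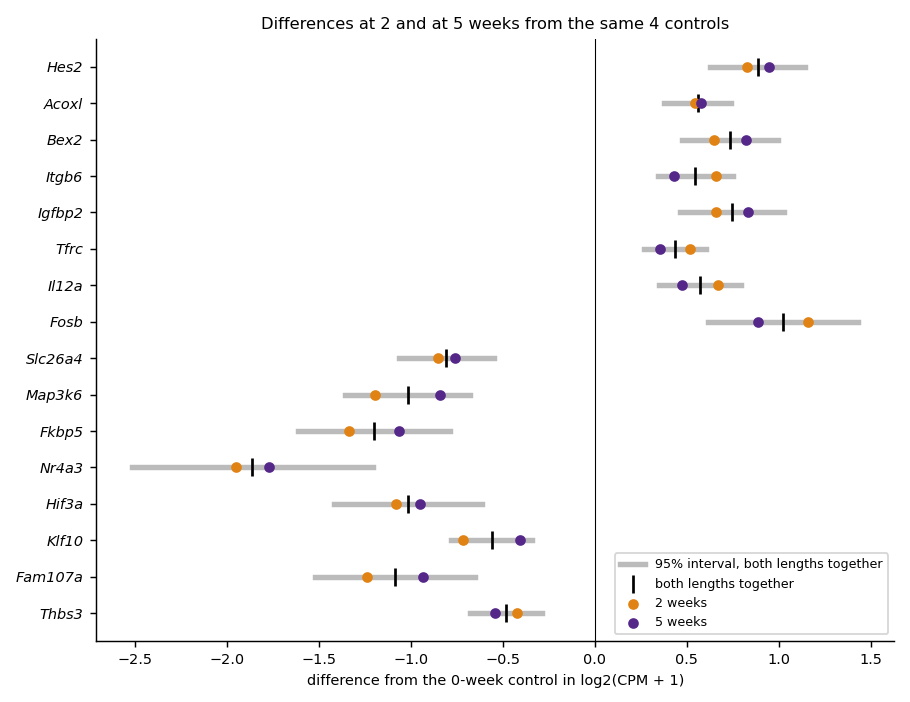
Difference from the 0-week controls in log2(CPM + 1) (horizontal axis) for the same 16 genes, at 2 weeks, at 5 weeks and for both together with its 95% interval. For each gene both treatment lengths lie on the same side of 0, and both share the 4 controls.

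The values at 2 and at 5 weeks use the same 4 controls, so their likeness is not independent support. They were, side by side, 0.83 and 0.94 for Hes2, 0.54 and 0.58 for Acoxl, and 0.65 and 0.82 for Bex2. For the genes on the lower side they were -0.85 and -0.76 for Slc26a4, -1.19 and -0.84 for Map3k6, and -1.95 and -1.77 for Nr4a3. The difference between 5 and 2 weeks uses no control library and could be tested by itself. Limma called 0 genes in it at an adjusted p under 0.05 and 1696 at an unadjusted p under 0.05 (10.9%). Klf10 was the exception among the 16, with a 5-week level above the 2-week level by 0.31 (95% interval 0.05 to 0.57, limma adjusted p 0.365). In the other 15 genes the interval of that difference held 0. It was narrow for Acoxl (-0.18 to 0.24) and wide for Nr4a3 (-0.57 to 0.94), so a sizeable difference between the lengths in Nr4a3 was within error.

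Glucocorticoid receptor targets averaged lower as a list, with members on both sides. Of 16 targets tested, 10 had a negative and 6 a positive difference, while 57.5% of all genes had a positive one. With library weights the split was 9 and 7. At an unadjusted p under 0.05, 7 had a negative difference and 1, Dusp1, a positive one, against 3.09% and 5.07% of all genes. The list median was -0.21, at -0.25 for 2 weeks and -0.19 for 5 weeks, against 0.02 for all genes, and it lay between -0.29 and -0.11 over the alternatives tried. In this list and those that follow, members beyond the pair of smallest p were named after their values were seen. Fkbp5 encodes a co-chaperone of Hsp90 that holds the glucocorticoid receptor in a state of low hormone affinity and is itself among its most sensitive targets. It spans chr17:28618068-28736501 in the deposited table. The controls stood at 71.9, 106, 68.4 and 48.9 CPM, the 2-week lungs at 39.5, 25.5, 26.7 and 21.4 CPM, and the 5-week lungs at 34.8, 40.5, 25.7 and 34.3 CPM. The controls spread widely, yet the lowest of them was above every treated lung. Its log2 difference was -1.20 ± 0.19 (SE), with a limma adjusted p of 0.0787 and an exact permutation p of 0.00404. Control replicate 2, the library with high adipocyte and skeletal muscle levels, was the highest control, and the difference was -1.01 without it.

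Zbtb16, the gene of the zinc finger protein PLZF, had the largest average difference of the list, at -1.64 ± 0.36 (SE). It measured 133, 198, 89.3 and 77.3 CPM in controls, 28.3, 16.7, 21.9 and 10.5 CPM at 2 weeks, and 58.9, 142, 34.3 and 97.2 CPM at 5 weeks. All 2-week lungs were below all controls, whereas 2 of the 5-week lungs lay within the control range. The 5-week level exceeded the 2-week level by 1.94 (95% interval 1.05 to 2.83), with a limma adjusted p of 0.276. The metallothionein genes Mt1 and Mt2, whose products bind zinc and copper, averaged -0.37 ± 0.12 and -0.64 ± 0.13 (SE). Mt2 was below all controls in 7 of 8 treated lungs, and its limma adjusted p was 0.202.

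Other well-known targets overlapped between the groups. Sgk1, a kinase gene that controls sodium channels, averaged 122 ± 11.9 CPM in controls and 124 ± 11.9 CPM in treated lungs, a log2 difference of 0.03 ± 0.08 (SE). Tsc22d3, which encodes the leucine zipper protein GILZ, differed by -0.16 ± 0.16 (SE) and overlapped in 7 of 8 treated lungs. Dusp1, a phosphatase gene that is also an immediate early gene, averaged 424 ± 117 CPM and 567 ± 126 CPM. Per1, a clock gene as well as a receptor target, differed by -0.25 ± 0.16 (SE). Of 20 circadian clock genes, 3 were lower and 0 higher at an unadjusted p under 0.05, against 3.09% and 5.07% of all genes. Their list median was -0.08.

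**Figure D3:**
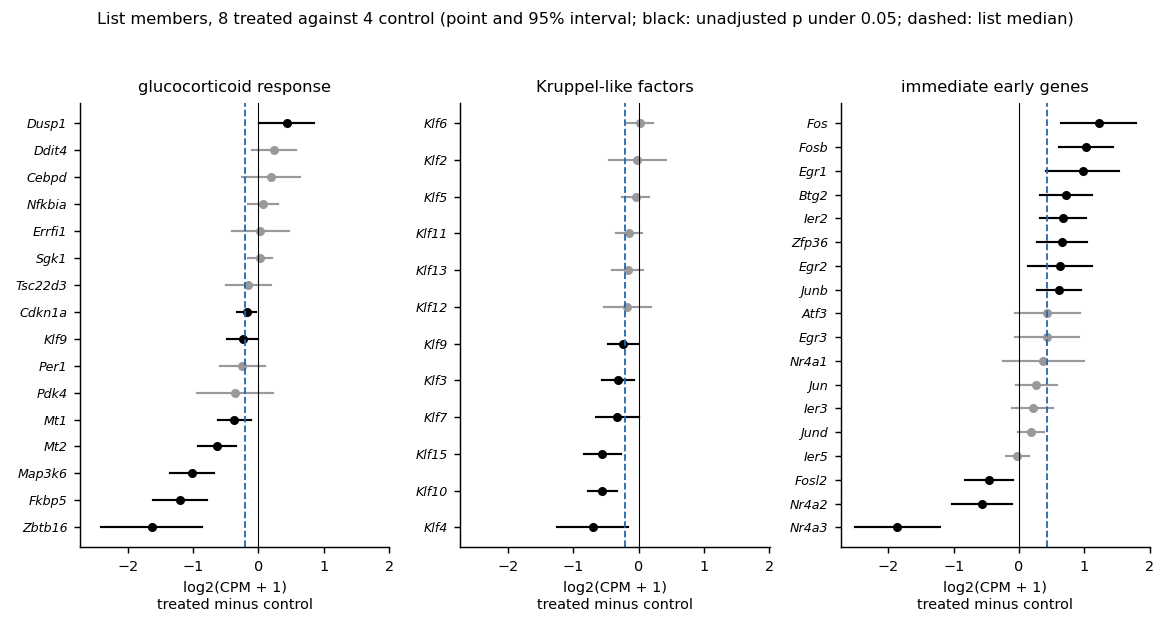
Log2(CPM + 1) difference of treated from control lungs (horizontal axes) for each tested gene of 3 lists, as a point with its 95% interval, in black where the unadjusted p was under 0.05. Dashed lines mark list medians, -0.21 for glucocorticoid response and for Kruppel-like factors and 0.43 for immediate early genes.

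Promoters of 3 genes from these lists, and of Sgk1 for contrast, are shown because each holds a short sequence bound by a transcription factor family tied to the lists. They are the 250 bases before the annotated start, 5' to 3' on the gene's strand, from RefSeq on GRCm38.p6. Fkbp5 is chr17:28486150-28486399 (minus strand), Klf15 is chr6:90462326-90462575 (plus), Sgk1 is chr10:21993640-21993889 (plus, the fifth of its 6 annotated starts), and Btg2 is chr1:134079156-134079405 (minus). Capitals mark the E-box CACGTG in Fkbp5, Klf15 and Sgk1, the glucocorticoid response element in Sgk1, and the cAMP response element TGACGTCA in Btg2. The last 3 capitals of Klf15 are part of an E-box that runs across the start.
Fkbp5: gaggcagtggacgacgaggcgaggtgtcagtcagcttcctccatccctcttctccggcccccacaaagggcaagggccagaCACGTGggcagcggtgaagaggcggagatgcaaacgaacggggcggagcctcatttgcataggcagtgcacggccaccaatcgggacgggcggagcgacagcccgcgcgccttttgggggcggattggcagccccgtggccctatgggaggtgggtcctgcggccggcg
Klf15: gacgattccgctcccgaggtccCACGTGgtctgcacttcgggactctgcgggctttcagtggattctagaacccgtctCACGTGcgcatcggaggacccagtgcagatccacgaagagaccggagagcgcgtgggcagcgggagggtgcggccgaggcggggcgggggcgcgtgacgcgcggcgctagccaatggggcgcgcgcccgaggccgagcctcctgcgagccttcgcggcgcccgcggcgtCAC
Sgk1: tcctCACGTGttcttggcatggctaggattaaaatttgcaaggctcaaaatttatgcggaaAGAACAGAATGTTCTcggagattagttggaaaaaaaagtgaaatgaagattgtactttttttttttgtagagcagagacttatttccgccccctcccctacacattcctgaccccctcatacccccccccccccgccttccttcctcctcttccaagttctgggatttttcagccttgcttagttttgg
Btg2: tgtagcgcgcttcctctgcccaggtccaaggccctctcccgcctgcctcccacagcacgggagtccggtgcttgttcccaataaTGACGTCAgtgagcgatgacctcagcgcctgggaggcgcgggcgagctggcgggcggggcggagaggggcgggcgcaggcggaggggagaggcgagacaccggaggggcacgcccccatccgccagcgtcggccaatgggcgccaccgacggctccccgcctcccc

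The search covered both strands of windows from 250 bases before to 50 after each annotated start, and also took in the D-box TTATGTAA and the heat shock element. Of 32851 such windows, 7.15% held an E-box, 1.79% a cAMP response element, 0.938% a D-box, 0.603% a heat shock element, and 3 windows (0.00913%) a glucocorticoid response element of exactly these letters. The window of Sgk1 printed above, with the element at -189 to -175, was 1 of those 3. Some genes have several windows, and counted by gene the share of all 27025 genes with any window that held an E-box was 8.09%, and a cAMP response element 2.03%. Of 14 glucocorticoid targets, with 24 windows between them, 4 held an E-box, 2 a cAMP response element and 1 the glucocorticoid element. Klf15 held 3 E-boxes, the first at -228 to -223, and 4 of 10 Kruppel-like factors with a window held at least 1. Among 15 immediate early genes with a window, 1 held an E-box and 1, Btg2, the cAMP response element at -166 to -159. None of these matches is a measured binding site.

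Most immediate early genes averaged higher, while 4 averaged lower, among them Nr4a3, Nr4a2 and Fosl2. Of 18 tested, 14 had a positive difference, as had 57.5% of all genes. At an unadjusted p under 0.05, 8 were higher and 3 lower, against 5.07% and 3.09% of all genes. The median was 0.43, at 0.50 for 2 weeks and 0.48 for 5 weeks, and between 0.34 and 0.61 over the alternatives. Fos, an AP-1 subunit, stood at 130, 53.0, 156 and 143 CPM in controls, at 204, 400, 210 and 310 CPM at 2 weeks, and at 302, 220, 207 and 285 CPM at 5 weeks. Every treated lung was above every control. Junb, its partner in AP-1, did not overlap either, with 175 to 261 CPM in controls and 288 to 486 CPM in treated lungs. The Fos and Junb log2 differences were 1.22 ± 0.26 and 0.61 ± 0.15 (SE), with limma adjusted p of 0.217 and 0.282.

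Egr1, a zinc finger factor induced by growth signals, averaged 231 ± 82.4 CPM in controls and 444 ± 131 CPM in treated lungs, and 1 treated lung lay within the control range. Btg2, an antiproliferative gene, and Zfp36, whose product tristetraprolin speeds the decay of inflammatory mRNAs, differed by 0.72 ± 0.18 and 0.66 ± 0.18 (SE). Ier2 and Egr2 differed by 0.67 ± 0.16 and 0.63 ± 0.22 (SE). Nr4a3 and Nr4a2 went the other way, at -1.86 ± 0.30 and -0.57 ± 0.22 (SE), as did Fosl2 at -0.46 ± 0.17 (SE). The third NR4A receptor gene, Nr4a1, differed by 0.37 ± 0.29 (SE) and overlapped. For Fos the 5-week level differed from the 2-week level by -0.11 (95% interval -0.77 to 0.55), and 0 of the 18 genes had an unadjusted p under 0.05 in that comparison.

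Kruppel-like factors, zinc finger regulators of endothelial, epithelial and metabolic genes, averaged lower. Of 12 tested, 11 had a negative difference, while 57.5% of all genes had a positive one. At an unadjusted p under 0.05, 6 were lower and 0 higher, against 3.09% and 5.07% of all genes. The list median was -0.21, at -0.33 for 2 weeks and -0.18 for 5 weeks. Klf15, a metabolic regulator that is a glucocorticoid receptor target, had 67.4, 72.7, 67.3 and 85.7 CPM in controls, 49.4, 51.7, 48.3 and 34.6 CPM at 2 weeks, and 60.6, 62.4, 39.7 and 52.8 CPM at 5 weeks. No treated lung reached the controls, and its log2 difference was -0.56 ± 0.13 (SE) with a limma adjusted p of 0.229. Klf4 averaged 407 ± 135 CPM in controls and 247 ± 74.5 CPM in treated lungs, with control replicate 1, at 218 CPM, inside the treated range. Klf2, the shear stress factor of endothelium, stood at 599 ± 166 CPM and 586 ± 145 CPM. Without control replicate 4, 2 of these genes had an unadjusted p under 0.05, and the list median was -0.14. The same library had the highest mean log2(CPM + 1) of heat shock genes, chaperones induced by protein stress, at 7.50 against 6.53 to 7.15 in the others, and the part of this in the list was not tested. Of 16 heat shock genes 15 had a negative difference and 2 were lower at an unadjusted p under 0.05, against 3.09% of all genes. At that threshold 0 were lower without control replicate 4 or control replicate 3, and 9 were without control replicate 1.

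**Figure D4:**
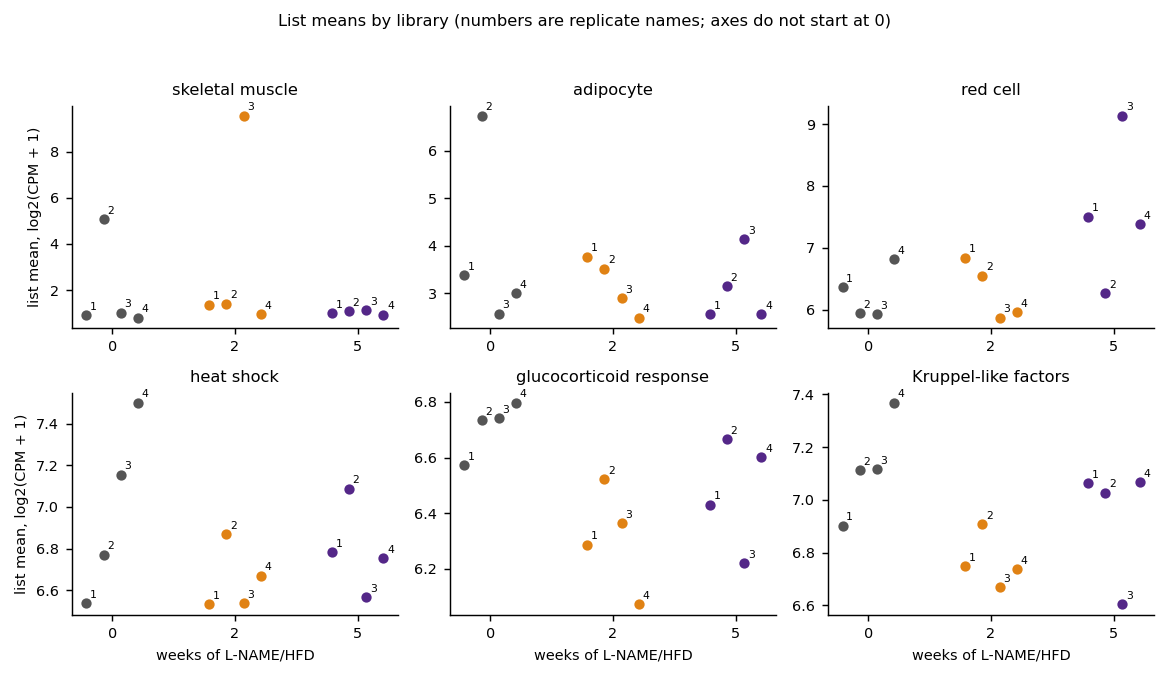
Mean log2(CPM + 1) of 6 lists in each library (vertical axes, which do not start at 0) against weeks of L-NAME/HFD, with replicate names beside the points. The skeletal muscle, adipocyte, red cell and heat shock panels show which single libraries stand apart, such as 2-week replicate 3 at 9.55 for skeletal muscle, and the glucocorticoid panel shows controls at 6.57 to 6.80.

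Cholesterol synthesis genes averaged slightly higher. Of 20 tested, 19 had a positive difference, as had 57.5% of all genes. At an unadjusted p under 0.05, 7 were higher and 1 lower, against 5.07% and 3.09% of all genes. The median was 0.18, at 0.23 for 2 weeks and 0.12 for 5 weeks. Idi1, which makes the isoprenoid building block dimethylallyl diphosphate, averaged 51.9 ± 4.32 CPM in controls and 70.3 ± 7.74 CPM in treated lungs. Fdps, the farnesyl diphosphate synthase, read 28.0, 31.6, 26.0 and 25.9 CPM in controls, 38.4, 37.8, 32.2 and 40.5 CPM at 2 weeks, and 38.1, 34.8, 37.1 and 31.9 CPM at 5 weeks. Fdps did not overlap between the groups, although its lowest treated lung was close to its highest control. The limma adjusted p was 0.217 for both. Pmvk, an earlier enzyme of the pathway, was the exception, at -0.38 ± 0.11 (SE). Without control replicate 2 the count was 13 higher, without control replicate 4 it was 4, and without the 3 libraries marked by muscle, fat or red cell genes it was 15.

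Genes of fatty acid synthesis averaged lower, with 1 control lung far above the rest. Scd1, the stearoyl-CoA desaturase, stood at 1899, 5840, 820 and 1563 CPM in controls and between 809 and 1220 CPM in treated lungs. Fasn, the fatty acid synthase, stood at 465, 1965, 289 and 449 CPM in controls and between 245 and 405 CPM in treated lungs. In both genes control replicate 2, the library with the high adipocyte level, was far above all others, and control replicate 3 lay within the treated range. The median of 12 genes was -0.32 with all libraries and -0.07 without control replicate 2, and that of 13 adipocyte genes was -0.81 and 0.13. The Scd1 difference was -0.99 ± 0.36 (SE) with that library and -0.46 without it.

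The nitric oxide and cyclic GMP genes, the pathway that L-NAME acts on, had mostly small average differences. Of 16 tested, 0 were higher and 3 lower at an unadjusted p under 0.05, against 5.07% and 3.09% of all genes. The list median was -0.09. Nos3, the endothelial nitric oxide synthase, had 30.1, 34.5, 36.5 and 35.6 CPM in controls, 32.1, 34.7, 27.6 and 24.4 CPM at 2 weeks, and 32.5, 29.8, 19.4 and 25.9 CPM at 5 weeks. The groups overlapped, and the log2 difference was -0.28 ± 0.13 (SE) with a limma adjusted p of 0.606. The gene of the inducible synthase, Nos2, differed by 0.15 ± 0.15 (SE), and Gucy1b1, a subunit of soluble guanylate cyclase, by 0.03 ± 0.09 (SE). Npr3, the receptor that clears natriuretic peptides, averaged 178 ± 73.2 CPM in controls and 93.2 ± 27.4 CPM in treated lungs, and 5 of 8 treated lungs were below all controls. Among 9 endothelin and renin-angiotensin genes 0 were higher and 2 lower at an unadjusted p under 0.05, against the same shares of all genes. Edn1, the endothelin 1 gene, differed by -0.12 ± 0.16 (SE).

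Il1b, the gene of interleukin 1 beta, had average differences of opposite sign at the 2 lengths, -0.37 and 1.14. It stood at 17.7, 7.81, 12 and 9.81 CPM in controls, at 4.33, 7.86, 8.03 and 18.3 CPM at 2 weeks, and at 25.1, 13.2, 35.5 and 39.2 CPM at 5 weeks. The 2-week lungs spread around the controls, and at 5 weeks 3 of 4 lungs were above all controls. Its log2 difference was 0.38 ± 0.33 (SE) for all treated lungs, with a limma adjusted p of 0.734 and an exact permutation p of 0.505. The 5-week level exceeded the 2-week level by 1.51 (95% interval 0.68 to 2.34, limma adjusted p 0.288). Elsewhere in the interleukin 1 family, Il33, an alarmin of epithelial and stromal cells, averaged 83.6 ± 11 CPM in controls and 64.1 ± 8.79 CPM in treated lungs. Gsdmd, the pore-forming gasdermin D gene, averaged 26.9 ± 4.53 CPM and 34.7 ± 3.04 CPM. The limma adjusted p of Il33 and Gsdmd was 0.304 and 0.32.

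**Figure D5:**
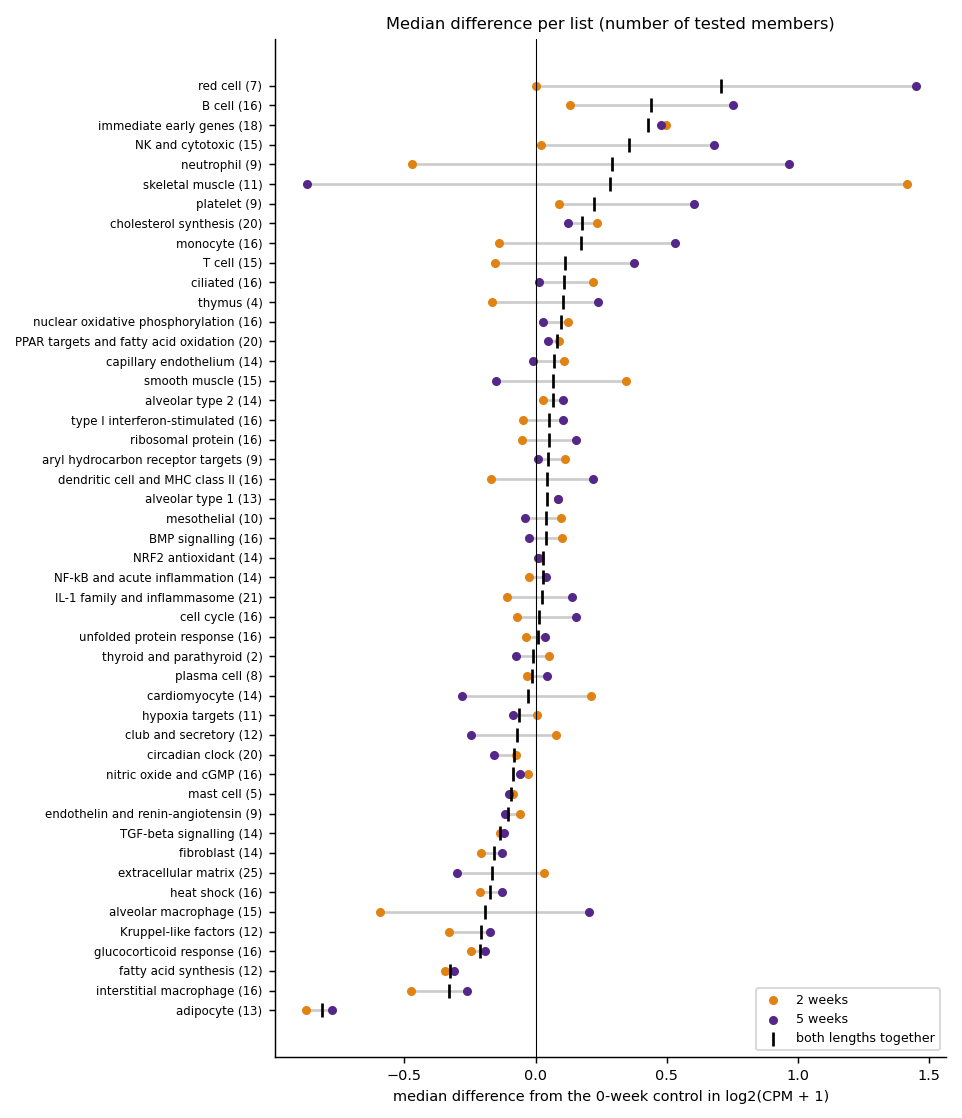
Median log2(CPM + 1) difference from the controls for each of 48 gene lists (number of tested members in brackets), at 2 weeks, at 5 weeks and for both together. Points of both lengths lie close together for immediate early genes (0.50 and 0.48) and glucocorticoid response (-0.25 and -0.19) and far apart for neutrophil genes (-0.47 and 0.97), with the same controls in each difference.

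Markers of blood and immune cells stood mainly higher at 5 weeks, although no gene of any list passed the test between the lengths with all libraries in. One 2-week lung, replicate 4, stood apart from the other 3 in these lists. Its neutrophil level, the list mean of log2(CPM + 1), was 4.32 against 3.13 to 3.29 in the other 2-week lungs, its B cell level 4.74 against 3.65 to 3.86, and its NK level 2.70 against 1.95 to 2.32. It lay within the 5-week range for neutrophil and B cell genes, as did control replicate 1 for neutrophil genes, at 4.59, and control replicate 2 for B cell genes, at 4.55. Without 2-week replicate 4, limma called 386 genes between 5 and 2 weeks over all tested genes, in either direction. With all libraries in, 15562 genes were tested. Higher at 5 weeks were 7 of 9 neutrophil, 5 of 15 NK and 3 of 16 B cell genes, while the 386 are not split by direction here. That library was singled out by its high level in these same lists, so these calls are no separate support. The 2-week medians without it were -0.78, -0.16 and -0.10. All 15 NK and cytotoxic genes had a positive average difference, but their median was 0.02 at 2 weeks and 0.68 at 5 weeks. Between 5 and 2 weeks 11 of them had an unadjusted p under 0.05, against 10.9% of all genes. For 16 B cell genes the medians were 0.13 and 0.75, and for 9 neutrophil genes -0.47 and 0.97. Cd177, a surface protein of neutrophils, was the only member of its list whose groups did not overlap, at 2.56 to 4.03 CPM in controls and 4.54 to 9.43 CPM in treated lungs. Over all genes 0.662% were higher without overlap. Lcn2, the other neutrophil gene of smallest p, averaged lower, between -0.48 and -0.28 over the alternatives. Of the 9 neutrophil genes, 8 averaged below the controls at 2 weeks and 8 above them at 5 weeks. Red cell genes had medians of 0.00 and 1.45, and without 5-week replicate 3 their pooled median went from 0.71 to 0.42. The B cell and NK counts also moved with single libraries. With all libraries 5 genes of each list were higher at an unadjusted p under 0.05, against 5.07% of all genes. Both counts fell to 1 without control replicate 3. They rose to 10 for B cells without control replicate 2 and to 9 for NK cells without control replicate 1.

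Among markers of resident cells, those of interstitial macrophages had a list median of -0.33 with all libraries in, at -0.47 for 2 weeks and -0.26 for 5 weeks. At an unadjusted p under 0.05, 6 of 16 were lower and 1 higher in the pooled comparison, against 3.09% and 5.07% of all genes. At 5 weeks 10 of the 16 averaged lower and 6 higher. The list mean of log2(CPM + 1) was 4.65 to 5.11 at 2 weeks. All 5-week lungs, at 5.01 to 5.12, lay within the control range of 4.76 to 5.83. Lyve1, a hyaluronan receptor of these macrophages and of lymphatic vessels, averaged 372 ± 88.3 CPM in controls and 241 ± 39.4 CPM in treated lungs, and Cd163, the haemoglobin scavenger receptor, 22 ± 10.3 CPM and 11.7 ± 2.01 CPM. Control replicate 2 was the highest for Cd163, at 36.8 CPM. Without that library the list median was -0.13, with 3 genes lower at an unadjusted p under 0.05. The differences of Lyve1 and Cd163 were then -0.57 and -0.51. Without the 3 libraries marked by muscle, fat or red cell genes the list median was -0.09, with 10 genes lower and 6 higher on average. Timp3, a metalloproteinase inhibitor bound to the matrix, had 1618 to 2121 CPM in controls and 1082 to 1549 CPM in treated lungs, so that every treated lung was below every control. The dendritic cell chemokine genes Ccl22 and Ccl17 averaged lower, at -0.58 ± 0.13 and -0.41 ± 0.13 (SE), with limma adjusted p of 0.228 and 0.449. Their list of 16 dendritic cell and MHC class II genes did not, with 9 higher, 7 lower and a median of 0.04. That median was -0.17 at 2 weeks and 0.22 at 5 weeks.

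Smooth muscle and matrix genes stood higher at 2 than at 5 weeks on average. The median differences from the controls at 2 and 5 weeks were 0.34 and -0.15 for 15 smooth muscle genes and 0.03 and -0.30 for 25 matrix genes. Between 5 and 2 weeks, 11 and 14 of these had an unadjusted p under 0.05 in either direction, against 10.9% of all genes. Acta2, the smooth muscle actin, stood at 233 to 289 CPM in controls, 313 to 391 CPM at 2 weeks and 226 to 275 CPM at 5 weeks. Myocd, the master coactivator of smooth muscle genes, was lower on average at both lengths, at 4.11 ± 0.955 CPM in controls and 2.52 ± 0.438 CPM in treated lungs, with a limma adjusted p of 0.263. For Lox, the collagen and elastin crosslinking enzyme, the differences were -0.27 at 2 weeks and -0.60 at 5 weeks, and its limma adjusted p in the pooled comparison was 0.219.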

How the data were processed

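Bulk RNA was sequenced from flash-frozen whole lungs of 12 mice. The deposited values are CPM for 23127 genes, raised by 0.0001 in every cell. The authors named TopHat2, Partek and mm10, per the submitters' processing notes. Their versions, the annotation, the use of strand and any filter are not stated in the labels or the table. Only 486 of 23058 nuclear genes start where GENCODE M21 (GRCm38) places the same identifier, so gene positions are printed as the deposited table gives them, with the end as the stop minus 1. Steps in the low CPM values correspond to 26000000 to 34100000 reads per library. Values of 1 to 20 steps fell on a whole step (tolerance 0.1) in 87.3% to 88.0% of cases, so whole reads were not recovered, no count model was fitted and counting error has no interval. Among the 12 libraries, 0 pairs were identical.

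Limma 3.58.1 in R 4.3.3 fitted log2(CPM + 1) by group means, using all 12 libraries at once and trended variance moderation. It covered the 15562 genes averaging 1 CPM or more. The pooled contrast was the mean of the 2-week and 5-week means minus the control mean. Tests were two-sided, with Benjamini-Hochberg adjustment over all tested genes and a threshold of 0.05. Single genes also had an exact two-sided permutation test over 495 splits. P-values measure the spread between mice. The fit was also run on simulated counts in which each planted change was the same in all treated libraries. No library was made to stand apart there, so the simulation cannot show how single libraries move the calls. Python 3.11.15, pandas 2.3.3 and matplotlib 3.10.9 served for counts, motif searches and plots.

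The comparison and the 48 gene lists were chosen with earlier results of these data known, and lists are described by counts and medians with no set test. The rule for named genes takes Il1b, the called genes (with no call, the 8 of smallest p in each direction), and the 2 of smallest p from each list. Predicted genes are counted, not named, and 1 was passed over. Replicate numbers, given in accession order, only name a library. Alternatives were filtering at 10 CPM or not at all, pseudocounts of 0.1 and 5, scaling by quantiles or by median of ratios, library weights, robust variance moderation, a fit with a single treated mean, leaving out each library, and leaving out at once the 3 libraries with high muscle, fat or red cell genes (replicate 2 of the controls and replicate 3 of each treated group). Reads of near-identical copies (the Hba-a genes, the Hbb-b genes, Hspa1a with Hspa1b), of overlapping genes and of antisense partners may have been divided between them, so each such gene is uncertain by itself.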

Additional observations from a re-analysis of the deposited data

Results flagged for a closer look

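In Map3k6, 1 of the 4 libraries at 5 weeks stood far from the others. Replicate 3 had 28.5 CPM and the other libraries 44.8 to 46.1 CPM, a gap of 0.924 of the group's range above Dixon's 95% critical value for 4 samples. The 16 genes of smallest p and Il1b were examined in each of the 3 groups, 51 groups of values in all, and 1 stood out in this way. Chance alone marks about 1 in 20 such groups.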

How the results depend on the processing

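No gene passed in the pooled comparison under pseudocounts of 0.1 and 5, other filters, other scalings, robust moderation or without the 3 libraries together. Library weights called 7 genes higher and 7 lower, and a single mean for treated lungs 2 and 1. Leaving out 1 library gave 0 to 3 higher and 0 to 4 lower, with calls only without control replicate 1 (Hes2 and Acoxl, adjusted p 0.0227 and 0.0259) or 5-week replicate 3 (Hes2, Bex2, Tnfsf10, Map3k6, Nr4a3, Klf10 and Thbs3, adjusted p 0.0453 to 0.0488). At an unadjusted p under 0.05, the 789 higher genes became 495 with a filter of 10 CPM and 475 to 1036 without 1 library (475 without control replicate 4), and the 481 lower genes 305 without the 3 libraries and 338 to 652 without 1. The 103 genes with all treated libraries above the controls became 62 with a filter of 10 CPM, 67 with median-of-ratios scaling, 50 with quantile scaling, 347 without the 3 libraries and 120 to 345 without 1. The 65 below became 99 with median-of-ratios scaling, 117 without the 3 libraries and 68 to 201 without 1. Fewer libraries make such separation easier to reach. Between 5 and 2 weeks the 0 calls became 881 with library weights, 386 without 2-week replicate 4, and 0 to 386 over all single omissions, and the cause was not tested.

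Of 2309 values for 106 named genes over 22 alternatives, 2260 kept their sign and stayed uncalled, 21 kept their sign and newly passed the threshold, and 28 in 6 genes had the other sign and stayed uncalled, of which Cyp1b1 in 1 alternative moved by more than its SE. The 16 genes of smallest p kept their sign throughout. The Il1b difference lay between 0.16 and 0.58, with no call. Of 48 list medians, 22 had the other sign under at least 1 alternative, 14 of them under 0.1 in size at the start. The other 8 reached, at the farthest, -0.04 (neutrophil) and 0.01 (fibroblast) without the 3 libraries, -0.02 (monocyte), -0.05 (T cell) and 0.02 (endothelin) with library weights, -0.29 (thymus) with a filter of 10 CPM, 0.13 (adipocyte) without control replicate 2 and -0.80 (skeletal muscle) without 2-week replicate 3. No paired analysis was possible because the labels give mouse numbers and no replicate number shared between groups. With 4 controls, the smallest exact p is 0.00404, and differences in genes near 1 CPM are understated by the added 1.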
